A study of Homo sapiens with 28 samples.

Results

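Untreated MV4-11 cells were compared with untreated MOLM-13 cells, a pair of human acute myeloid leukemia (AML) cell lines that both carry a rearranged MLL gene (MLL-r). The members were taken by title, with earlier results of these data known. They comprised 2 control arrays of MV4-11 and 2 of MOLM-13, 4 of the 28 arrays of the series. The cells of all 4 arrays had been kept for 8 days in the vehicle, 0.01% DMSO, without drug. RNA of each sample was measured on Clariom S arrays, and the signal of each gene is given on the log2 scale after robust multi-array averaging (RMA), so that a difference of 1 is a 2-fold difference. The series holds 7 AML lines, each with 2 control arrays and 2 arrays after 8 days in 1 µM Pinometostat, an inhibitor of the histone methyltransferase DOT1L. Each group was 1 cell line. MV4-11 was grown in IMDM and MOLM-13 in RPMI-1640, so the fusion, the medium and every other difference between the lines cannot be told apart. Whether the arrays of a line came from separate cultures was not given in the sources used here, and the p-values measure the spread between these arrays.

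MLL (KMT2A) encodes a histone H3K4 methyltransferase that keeps HOX genes active in blood progenitors. In MLL-r leukemia its N-terminal part is fused to a partner protein, AF4 (AFF1) in MV4-11 and AF9 (MLLT3) in MOLM-13. Both partners belong to protein complexes that promote transcriptional elongation, and the fusions draw these complexes and DOT1L to their target genes. Both lines have a monocytic character and an internal tandem duplication of the receptor kinase FLT3, which signals through STAT5 and the RAS/ERK cascade.

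The 2 lines differed at 927 of 17687 named genes (5.24%) at an adjusted p under 0.05 and a log2 difference of at least 1. Of these, 516 (2.92%) were higher in MV4-11 and 411 (2.32%) were higher in MOLM-13. With no minimum size, 1233 genes (6.97%) had an adjusted p under 0.05. An unadjusted p under 0.05 was found at 3044 of the 17687 genes, to be set beside list counts at that cutoff. Most differences were moderate, with 153 genes at least 2 log2 units higher in MV4-11 and 125 in MOLM-13, and 16 and 20 genes at least 4 units higher. Over all genes the median difference was 0.02 and its SD was 0.59. The arrays of the 2 lines did not overlap at 39.7% of all genes. When each array was centred on its own median, 453 genes were higher in MV4-11 and 492 in MOLM-13, so which line had more called genes depended on the scaling. The block on replicate number mattered as well, since 355 and 271 genes were called without it. Leaving out a single array gave 341 and 245 genes (MV4-11 replicate 1), 339 and 282 (MV4-11 replicate 2), 340 and 258 (MOLM-13 replicate 1) and 355 and 285 (MOLM-13 replicate 2), where the lone array of a line was taken to vary like the other lines. Each array held the RNA of a whole population, and fewer cells expressing a gene cannot be told apart from less RNA per cell.

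**Figure D1:**
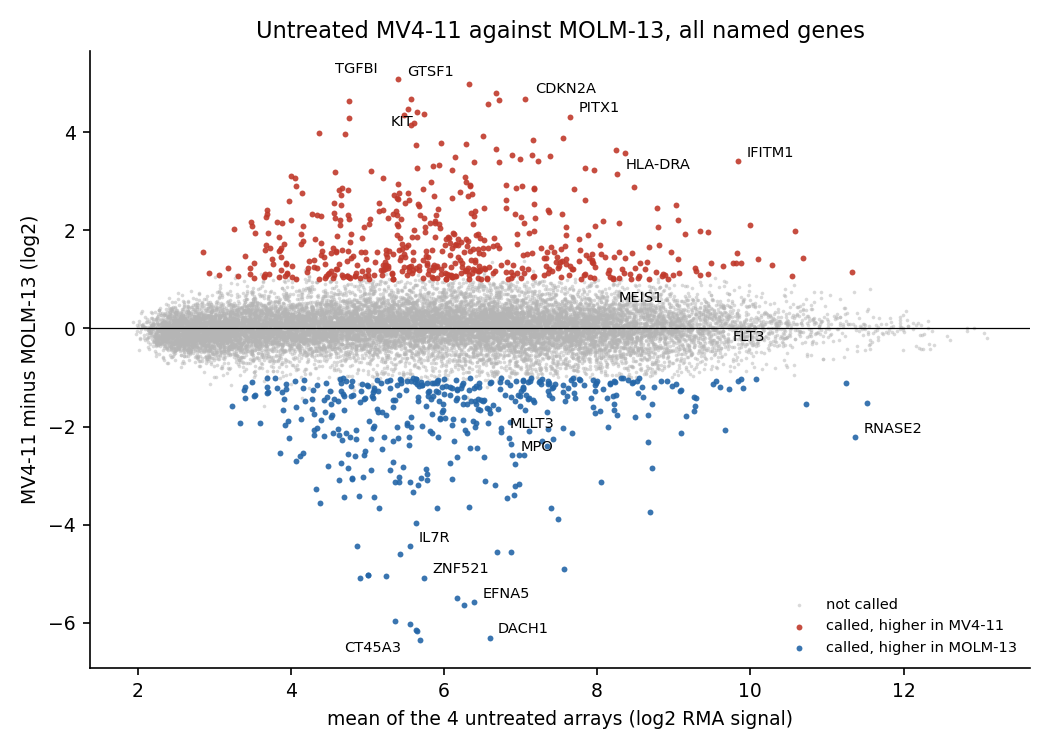
Mean log2 RMA signal of the 4 untreated arrays (horizontal axis) against the MV4-11 minus MOLM-13 difference (vertical axis, log2), with 1 point for each named gene outside the Y chromosome. Red points were called higher in MV4-11, blue points higher in MOLM-13 and gray points were not called; CT45A3 and DACH1 lie lowest, below -6, while FLT3 lies at 0.09.

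The largest difference in favor of MV4-11 was that of TGFBI, an extracellular matrix protein induced by TGF-beta. Its signal was 7.89 and 8.00 in the MV4-11 arrays against 2.81 and 2.88 in the MOLM-13 arrays, a difference of 5.09 ± 0.28 (moderated SE, as for all differences below; n = 2 arrays a line; adjusted p = 1.38e-08), or 34.1-fold. The MOLM-13 values lay below the median of the array's 23 background probe sets (3.03, range 1.97 to 7.99 in the 4 arrays). The ratio and the rank are therefore relative to that level. This also applies to genes named below with a line under 3.03, such as CSMD3 and RUBCNL. At TGFBI both MV4-11 arrays were far above both MOLM-13 arrays. The 10 control arrays of the 5 other lines spanned almost the same distance, from 2.59 to 7.83. KIT, the receptor for stem cell factor, stood at 8.10 and 7.77 in MV4-11 and at 3.59 and 3.52 in MOLM-13 (4.38 ± 0.43, adjusted p = 6.28e-06). No other line reached the KIT signal of MV4-11, since their highest array was at 6.66. CDKN2A, which encodes the cell cycle inhibitors p16INK4a and p14ARF, had values of 9.43 and 9.37 in MV4-11 and of 4.22 and 5.21 in MOLM-13 (4.68 ± 0.43, adjusted p = 3.39e-06). The MOLM-13 arrays differed from each other by more than the MV4-11 arrays at this gene, yet both were low. PITX1, a homeobox factor of hindlimb development, was at 9.54 and 10.07 in MV4-11 and at 5.61 and 5.35 in MOLM-13 (4.32 ± 0.24, adjusted p = 1.56e-08), again with all other lines below MV4-11 (highest array 7.59); it ranked just after the 12 largest.

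The other genes of this group did not share one pattern across the lines. GTSF1, which acts in transposon silencing by PIWI-interacting RNAs in the germ line, was at 8.97 and 8.67 in MV4-11 and at 3.62 and 4.07 in MOLM-13 (4.98 ± 0.28, adjusted p = 2.19e-08). Here MOLM-13 was the line set apart, because the 10 arrays of the other lines lay between 9.21 and 11.03. PROSER1 behaved alike, with 7.87 and 7.66 in MV4-11, 3.28 and 3.30 in MOLM-13 and no array of another line under 5.79 (4.48 ± 0.38, adjusted p = 1.4e-06). CSMD3 was the opposite case, since MV4-11 stood at 7.13 and 7.04 while MOLM-13 (2.47 and 2.42) and all other lines (2.28 to 3.32) were low. NRIP1, a corepressor of nuclear receptors, was higher in MV4-11 (9.15 and 8.94) than in any array of the other lines (highest 8.10), against 4.29 and 4.51 in MOLM-13. Of the other lines only U-937 was as low as MOLM-13 at NRIP1 (mean 3.90), while the means of the rest were 7.44 to 8.05. FCER1G, the signaling chain of activating Fc receptors, differed by 4.79 ± 0.21 (9.19 and 8.95 against 4.38 and 4.17, adjusted p = 1.83e-09). CREB5, a CREB family transcription factor, the meiotic protein gene HORMAD1, the nucleotidase gene NT5C3B and the zinc finger gene ZNF28 completed the 12 genes with the largest difference, at values of 4.36 to 4.69. Of the 516 genes higher in MV4-11, 162 were higher in both MV4-11 arrays than in all 10 arrays of the other lines, and at 73 both MOLM-13 arrays were below all of these 10.

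In the other direction, 6 of the 12 largest differences were copies of CT45A, a cancer-testis gene family on the X chromosome whose expression is otherwise restricted to testis. All 9 measured CT45A genes were called higher in MOLM-13, by 4.45 to 6.35 log2 units, and they remained so when any single array was left out. CT45A3 read 2.47 and 2.54 in MV4-11 and 8.95 and 8.76 in MOLM-13, a difference of -6.35 ± 0.28 (adjusted p = 1.83e-09). The MV4-11 values were below the median of the background probe sets, and the 81.6-fold ratio is relative to that level. The highest array of any other line was at 4.15, which left MOLM-13 as the only line of the series with a high CT45A3 signal. The copies are nearly identical and CT45A8 and CT45A9 had equal values in every array, so the array may not tell single copies apart. The RefSeq promoter windows (GRCh38.p14, 250 bases before to 50 after the start) of 2 copies are shown to display this likeness. That of CT45A1 lies at chrX:135713389-135713688 on the plus strand and that of CT45A7 at chrX:135837030-135837329 on the minus strand. Capitals mark the CG dinucleotides. In their alignment 274 of 285 aligned bases were identical, or 87.0% of the alignment when its 30 gap positions are counted.
CT45A1: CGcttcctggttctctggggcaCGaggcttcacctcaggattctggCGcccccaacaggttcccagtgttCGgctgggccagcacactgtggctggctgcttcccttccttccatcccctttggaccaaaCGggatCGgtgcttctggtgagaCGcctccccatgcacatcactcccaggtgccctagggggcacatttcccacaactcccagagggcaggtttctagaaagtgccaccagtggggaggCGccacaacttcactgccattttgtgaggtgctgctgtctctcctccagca
CT45A7: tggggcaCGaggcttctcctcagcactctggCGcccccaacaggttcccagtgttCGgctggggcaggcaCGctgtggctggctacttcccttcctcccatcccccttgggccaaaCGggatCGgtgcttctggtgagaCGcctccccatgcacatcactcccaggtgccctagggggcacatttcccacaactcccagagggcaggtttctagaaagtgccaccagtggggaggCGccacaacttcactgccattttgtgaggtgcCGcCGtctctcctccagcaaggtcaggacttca
The windows held 8 and 10 CG, against a median of 14 over 35116 promoter windows. XAGE1B, another cancer-testis gene on the X chromosome, was also higher in MOLM-13 (9.18 and 8.98 against 3.25 and 3.63, a difference of -5.64 ± 0.27). For XAGE1B the other lines reached 10.61, so its high signal was not confined to MOLM-13. Of the 45 measured genes of the cancer-testis list, only CT45A1 and XAGE1B were called, both higher in MOLM-13. This share of 4.44% is near the 5.24% of all genes called, and the median of the list was -0.02. The list held neither the other CT45A copies nor the meiotic protein gene HORMAD1, which was higher in MV4-11.

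DACH1, a transcriptional corepressor, gave the largest difference outside CT45A. Its signal was 3.79 and 3.09 in MV4-11 and 9.58 and 9.92 in MOLM-13 (-6.30 ± 0.31, adjusted p = 4.57e-09). NOMO-1 and THP-1, the other MLL-r lines, had DACH1 means of 8.97 and 9.24, so MV4-11 was the low line among the MLL-r lines. ZDHHC2, a palmitoyltransferase, was at 3.50 and 3.33 in MV4-11 against 8.96 and 8.87 in MOLM-13 (-5.50 ± 0.25, adjusted p = 1.83e-09), and no array of another line was under 6.95. EFNA5, a ligand of Eph receptors, was at 3.81 and 3.40 against 9.13 and 9.23 (-5.58 ± 0.25, adjusted p = 1.83e-09). RUBCNL, a regulator of autophagosome maturation, was at 2.29 and 2.44 against 7.67 and 7.22 (-5.09 ± 0.31, adjusted p = 3.43e-08). These genes were picked for a large difference and for arrays that did not overlap, so the separation of the lines follows from the choice. Of the 411 genes higher in MOLM-13, 100 were higher in both MOLM-13 arrays than in all 10 arrays of the other lines, and at 74 both MV4-11 arrays were below all of them.

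**Figure D2:**
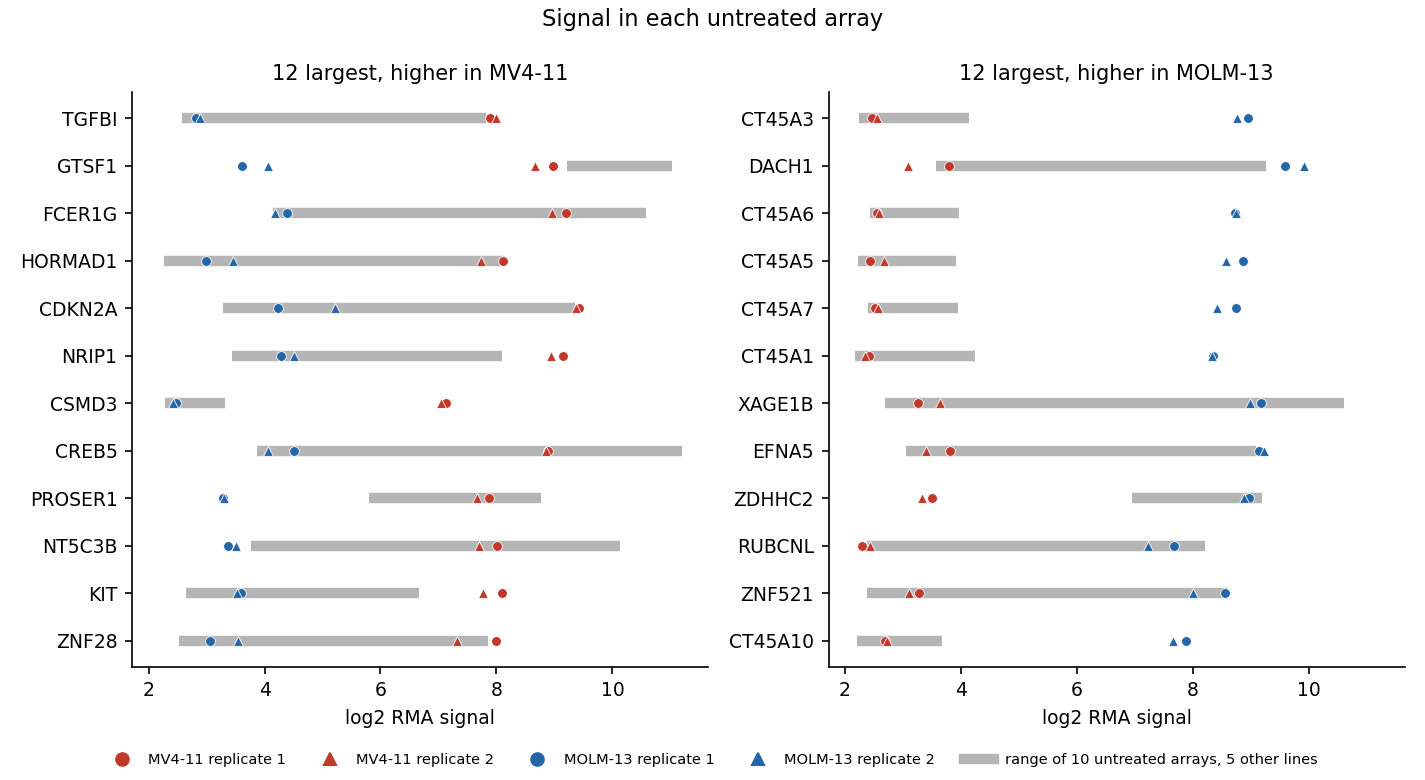
Log2 RMA signal (horizontal axis) in each untreated array for the 12 called genes with the largest difference in each direction. Red and blue symbols are single MV4-11 and MOLM-13 arrays, and the gray bar spans the 10 control arrays of the 5 other lines; MOLM-13 lies alone at the CT45A genes shown, at 7.65 or more, and MV4-11 alone at CSMD3, at 7.04 and 7.13.

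The genes of the fusion itself were examined next. KMT2A was higher in MV4-11, at 8.35 and 8.85 against 7.28 and 7.40 (1.26 ± 0.24, adjusted p = 0.00304). This call was lost without MV4-11 replicate 2 (1.06, adjusted p = 0.0827). MLLT3, the partner gene in MOLM-13, was higher in MOLM-13, with 7.73 and 7.88 against 5.97 and 5.40 (-2.12 ± 0.26, adjusted p = 6.38e-05). MV4-11 was the low line here, because the other lines ranged from 6.55 to 8.12. AFF1, the partner gene in MV4-11, was at 10.85 and 11.11 in MV4-11 and at 10.84 and 11.14 in MOLM-13, a difference of -0.01 (95% interval -0.49 to 0.46). The probes read gene names and not fusion joints, so signal from a fused and an unfused allele cannot be told apart. DOT1L was at 7.67 and 8.53 against 7.31 and 7.88 (0.50 ± 0.22, adjusted p = 0.237), and the arrays of the 2 lines overlapped. KMT2A and MLLT3 were the only called genes among 25 measured genes for MLL, its fusion partners and the DOT1L complex. This share of 8.0% stood beside 5.24% of all genes, and the median of the 25 was 0.26.

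Known targets of MLL fusions were called in 1 direction. Of 33 measured targets outside the HOX clusters, 4 (12.1%) were higher in MOLM-13, against 2.32% of all genes, and 0 in MV4-11 by limma. Their median was 0.09, against 0.02 over all genes. At an unadjusted p under 0.05, which 3044 of all 17687 genes had, 7 were higher in MOLM-13 and 6 in MV4-11. ZNF521, a zinc finger cofactor of immature progenitors, was at 3.28 and 3.11 in MV4-11 and at 8.55 and 8.00 in MOLM-13 (-5.08 ± 0.29, adjusted p = 2.34e-08). NOMO-1 (mean 8.15) and THP-1 (8.21) resembled MOLM-13 at this gene. IGF2BP3, an RNA-binding protein of fetal tissues, was at 2.61 and 3.56 against 6.26 and 6.11 (-3.10 ± 0.31, adjusted p = 7.03e-06). SENP6, a protease for SUMO chains, was higher in MOLM-13 by 1.66 ± 0.21, as was SOCS2, described below. MEIS1, the HOX cofactor that sustains MLL-r leukemia, was at 8.60 and 8.21 against 8.24 and 7.64 (0.46 ± 0.28, adjusted p = 0.463). IGF2BP2 (0.17 ± 0.25) and MYC (0.15 ± 0.21) did not pass the test either. Of 39 HOX cluster genes, 23 were measured by name, with HOXA2 as the only HOXA gene among them, so HOXA9 and HOXA10 were not analysed here. None of the 23 was called by limma and 0 had an unadjusted p under 0.05 (median -0.03). Their median signal was 3.93 to 4.34 in the 4 arrays and at most 1 of them reached 6 in any array, so these values say little about the HOX genes.

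FLT3 signaling was compared because both lines carry a mutated FLT3. FLT3 itself was at 9.81 and 9.60 in MV4-11 and at 9.67 and 9.56 in MOLM-13, and the difference of 0.09 had a 95% interval from -0.52 to 0.70. Both lines were above every array of the other lines (highest 6.98). Of 36 measured genes of the FLT3 and STAT5 pathway, 6 were higher in MV4-11 and 2 in MOLM-13, against 2.92% and 2.32% of all genes (median 0.09). The former count was 4 without MV4-11 replicate 1. Besides KIT, DUSP6, a phosphatase that is both a target and an inhibitor of ERK, was at 8.55 and 8.39 against 5.73 and 5.42 (2.90 ± 0.23, adjusted p = 7.78e-07). EGR1, an immediate early transcription factor downstream of ERK, was at 8.03 and 9.11 against 5.63 and 6.68 (2.42 ± 0.24, adjusted p = 6.34e-06). Replicate 2 was higher than replicate 1 in both lines at EGR1, and the lines did not overlap. MOLM-13 had more of 2 feedback inhibitors. SOCS2, a STAT5 target that restrains cytokine receptors, was at 8.24 and 8.31 in MV4-11 against a mean of 10.06 ± 0.08 in MOLM-13 (SD, n = 2; -1.78 ± 0.26, adjusted p = 0.000311), and SPRY1, an inhibitor of the ERK cascade, differed by -2.07 ± 0.27.

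The myeloid character of both lines was checked with markers. SPI1, the master factor of myeloid cells, was high in all 4 arrays (9.26 to 9.80), as was lysozyme, LYZ (11.93 to 12.71), and neither was called. ANPEP (CD13) lay between 3.97 and 5.34. CSF3R, a further marker of this set, was at 7.70 and 8.27 in MV4-11 and at 8.77 and 9.59 in MOLM-13. It was called higher in MOLM-13 by limma (-1.19 ± 0.26, adjusted p = 0.00998). Several genes of neutrophil granules were lower in MV4-11, where 7 of 30 measured genes (23.3%, against 2.32% of all genes) were called higher in MOLM-13 and 0 in MV4-11 by limma, with a median of -0.28. At an unadjusted p under 0.05 these counts were 11 and 0, where 3044 of all 17687 genes passed in either direction. The count of calls was 6 or 7 when any single array was left out. MPO, the peroxidase of azurophil granules, was at 5.55 and 5.65 in MV4-11 and at 8.10 and 8.25 in MOLM-13 (-2.58 ± 0.23, adjusted p = 3.04e-06). CST7, an inhibitor of lysosomal proteases, differed by -2.31 ± 0.22 (7.40 and 7.63 against 9.66 and 9.99). RNASE2, a granule ribonuclease, was high in both lines, at 10.36 and 10.17 against 12.47 and 12.49 (-2.21 ± 0.21, adjusted p = 4.24e-06). BPI, which kills Gram-negative bacteria, differed by -1.96 ± 0.32. MS4A3, a marker of granulocyte and monocyte progenitors, went the other way, with 10.06 and 9.81 in MV4-11 against 7.30 and 6.78 (2.89 ± 0.24, adjusted p = 1.01e-06).

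Monocyte and macrophage genes were divided, 3 of 54 being higher in MV4-11 and 5 in MOLM-13, beside 2.92% and 2.32% of all genes (median -0.04), the latter count falling to 2 without MOLM-13 replicate 1, 3 without MV4-11 replicate 2 and 3 without MOLM-13 replicate 2. ITGAM, which encodes CD11b, was at 5.23 and 5.07 in MV4-11 and at 6.55 and 7.09 in MOLM-13 (-1.67 ± 0.25, adjusted p = 0.000393). CYBB, the catalytic subunit of the phagocyte NADPH oxidase, was at 5.61 and 4.85 against 7.46 and 7.27 (-2.13 ± 0.26, adjusted p = 6.47e-05). The leukocyte receptor genes LILRA1 (7.46 and 7.42 against 5.74 and 4.88) and LILRB2 (6.98 and 6.92 against 5.12 and 5.28) were instead higher in MV4-11, by 2.13 and 1.75. CD14, the lipopolysaccharide coreceptor of monocytes, was low in all 4 arrays (4.73 to 4.83; difference 0.05, 95% interval -0.60 to 0.70), and CSF1R, the receptor for macrophage colony-stimulating factor, was between 7.77 and 7.99 in all 4 (0.11 ± 0.24).

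Among 41 measured transcription factors of the myeloid lineage, 3 were higher in each line, against 2.92% of all genes for MV4-11 and 2.32% for MOLM-13 (median 0.10). IRF4, a factor of lymphoid and dendritic cells, was at 8.74 and 8.45 in MV4-11 and at 5.51 and 5.99 in MOLM-13 (2.85 ± 0.29, adjusted p = 9.01e-06), with the other lines no higher than 6.54. BCL6, a transcriptional repressor, was at 5.35 and 5.07 against 8.10 and 7.56 (-2.62 ± 0.32, adjusted p = 5.78e-05). GATA2, a factor of stem cells and mast cells, was higher in MOLM-13 (6.56 and 7.24 against 4.59 and 4.96, a difference of -2.12 ± 0.26), and so was NFE2, a factor of megakaryocytes and erythroid cells (-2.37 ± 0.25). LAPTM4B, a membrane protein used in leukemia stem cell scores, was at 4.92 and 4.09 in MV4-11 against 8.46 and 7.83 in MOLM-13 (-3.64 ± 0.24, adjusted p = 7.59e-08). CD34, the surface antigen of progenitors, was at 4.30 and 4.38 against 4.12 and 5.56, so that the MOLM-13 arrays lay on either side of the MV4-11 arrays (-0.50 ± 0.31, adjusted p = 0.476). Without MOLM-13 replicate 1 the CD34 difference was -1.17 (adjusted p = 0.0402). Over 34 stem and progenitor genes, 1 was higher in MV4-11 and 3 in MOLM-13 (11.8% in all, against 5.24% of all genes), with a median of -0.01.

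Genes of MHC class II, the molecules that present antigen to helper T cells, were in part higher in MV4-11. Of 12 measured genes, 6 (50.0%, against 2.92% of all genes) were called higher in MV4-11 and 0 in MOLM-13 by limma, as they were at an unadjusted p under 0.05, and their median of 0.93 compared with 0.02 over all genes. The count was 5 without MV4-11 replicate 1 and 5 without MOLM-13 replicate 1. HLA-DRA was at 9.88 and 9.79 in MV4-11 and at 6.95 and 6.41 in MOLM-13 (3.16 ± 0.23, adjusted p = 3.15e-07). HLA-DPA1 was at 7.38 and 7.25 against 4.77 and 3.90 (2.98 ± 0.38, adjusted p = 9.88e-05) and HLA-DRB1 at 8.30 and 7.76 against 5.61 and 5.55 (2.45 ± 0.28, adjusted p = 3.21e-05). HLA-DPB1 followed with 7.06 and 6.80 against 4.48 and 4.32 (2.53 ± 0.23, adjusted p = 3.39e-06). In all of these genes both MV4-11 arrays were above both MOLM-13 arrays, but NOMO-1, a further MLL-r line, was higher still, with a mean of 11.98 at HLA-DRA and of 9.15 at HLA-DPA1. HLA genes vary between people and resemble each other, and the probes may not bind all alleles alike. The remaining called members were CIITA, the coactivator that switches the class II genes on (1.92 ± 0.29), and HLA-DMA, which helps load peptides (1.27 ± 0.24). Class II promoters carry a Y box, an inverted CCAAT sequence bound by NF-Y. The RefSeq promoter windows (GRCh38.p14) of HLA-DRB1 (chr6:32589799-32590098, minus strand) and HLA-DPB1 (chr6:33075740-33076039, plus strand) are shown with CCAAT and its complement ATTGG in capitals.
HLA-DRB1: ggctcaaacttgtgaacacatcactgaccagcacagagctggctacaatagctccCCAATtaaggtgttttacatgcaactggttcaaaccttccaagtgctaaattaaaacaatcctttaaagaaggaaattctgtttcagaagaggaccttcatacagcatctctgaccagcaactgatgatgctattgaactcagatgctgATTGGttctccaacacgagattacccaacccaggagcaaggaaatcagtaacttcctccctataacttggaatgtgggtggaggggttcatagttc
HLA-DPB1: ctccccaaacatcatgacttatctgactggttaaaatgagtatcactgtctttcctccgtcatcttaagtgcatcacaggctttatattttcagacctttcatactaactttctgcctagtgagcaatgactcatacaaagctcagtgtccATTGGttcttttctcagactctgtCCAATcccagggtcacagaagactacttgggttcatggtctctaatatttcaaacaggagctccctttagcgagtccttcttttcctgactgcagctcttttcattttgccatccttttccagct
Each window held 2 such matches. Of the 5 windows found for called class II genes, 3 (60.0%) held at least 2 matches and the others held none. At least 1 was present in 34.6% of all promoter windows and at least 2 in 10.8%. The match is a description of the sequence and says nothing of binding in these cells. Among 18 MHC class I and antigen processing genes, 3 were higher in MOLM-13 and 0 in MV4-11 at an unadjusted p under 0.05. Of the 18, 2 (11.1%, against 2.32% of all genes) were called higher in MOLM-13 and 0 in MV4-11 by limma. ERAP1, which trims peptides for class I, was the firmer of these (-1.76 ± 0.26, adjusted p = 0.000401), while ERAP2 (-1.48 ± 0.39) lost its call whenever an array was left out (adjusted p from 0.0756 to 0.277).

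Interferon-stimulated genes were called in both directions. Of 50 measured genes, 5 were higher in MV4-11 and 4 in MOLM-13, or 18.0% in all against 5.24% of all genes (median -0.002). The former was 3 without MOLM-13 replicate 2 and without the replicate block, the latter falling to 1 without MOLM-13 replicate 1, 2 without MOLM-13 replicate 2 and 2 without MV4-11 replicate 1. Those higher in MV4-11 included 3 neighboring and similar genes for interferon-induced transmembrane proteins that block viral entry. IFITM1 was at 11.59 and 11.50 in MV4-11 against 8.40 and 7.86 in MOLM-13 (3.41 ± 0.27, adjusted p = 5.43e-07), IFITM3 differed by 2.12 ± 0.22 and IFITM2 by 1.98 ± 0.22. These copies may share signal on the array. The interferon-induced chemokine CXCL10 was in contrast higher in MOLM-13 (5.50 and 4.67 against 3.01 and 2.69, a difference of -2.24 ± 0.31, adjusted p = 0.000218).

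Of 73 measured chemokines, cytokines and their receptors, 5 were higher in MV4-11 and 7 in MOLM-13, or 16.4% in all against 5.24% of all genes (median -0.06). The former count was 3 without MV4-11 replicate 1, 3 without MV4-11 replicate 2 and 3 without MOLM-13 replicate 1, and the latter was 4 without MV4-11 replicate 1. IL7R, the receptor for interleukin-7 on lymphoid cells, was the widest apart, at 3.77 and 2.90 in MV4-11 and at 8.25 and 7.30 in MOLM-13 (-4.44 ± 0.34, adjusted p = 4.16e-07). MOLM-13 was higher than all other lines at IL7R, whose highest array was at 5.97. IL1B, an inflammatory cytokine, was at 7.05 and 6.79 in MV4-11 and at 4.62 and 4.25 in MOLM-13 (2.49 ± 0.32, adjusted p = 9.47e-05). C3AR1, the receptor for complement fragment C3a, was higher in MOLM-13 (6.47 and 5.79 against 3.32 and 3.74, a difference of -2.60 ± 0.35). CD44, an adhesion receptor for hyaluronan, was at 9.51 in both MV4-11 arrays and at 7.87 and 7.82 in MOLM-13 (1.66 ± 0.21, adjusted p = 9.49e-05). PECAM1 (-1.35 ± 0.22), the dendritic cell protein gene CD83 (-1.90 ± 0.26) and CD70, a ligand of the TNF family under study as a leukemia target (-1.42 ± 0.24), were higher in MOLM-13.

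Genes of cell survival differed in opposite directions. BCL2L10, an antiapoptotic member of the BCL2 family, was at 7.81 and 7.95 in MV4-11 and at 4.13 and 4.66 in MOLM-13 (3.49 ± 0.24, adjusted p = 1.23e-07), and no other line exceeded 4.64. BCL2A1, also antiapoptotic and induced by NF-kappaB, was at 3.23 and 3.34 in MV4-11 and at 6.45 and 5.60 in MOLM-13 (-2.74 ± 0.33, adjusted p = 4.55e-05). The other 17 of 19 measured family members were not called, so 10.5% were called against 5.24% of all genes. DNMT3A, the DNA methyltransferase for new methyl marks, was higher in MV4-11 (8.38 and 8.46 against 6.54 and 6.93, a difference of 1.68 ± 0.29, adjusted p = 0.0015). EDA2R, a death receptor among the p53 targets, was also higher in MV4-11 (6.95 and 7.02 against 4.76 and 5.53, a difference of 1.84 ± 0.28). Of 26 measured p53 targets 2 were called in each direction (15.4% in all, against 5.24% of all genes, with a median of -0.23). The 2 higher in MOLM-13, CDKN1A (-1.11, adjusted p = 0.0428) and RRM2B (-1.01, adjusted p = 0.0434), were not called without the replicate block. Neither was called without MV4-11 replicate 1, MOLM-13 replicate 1 or MOLM-13 replicate 2. RRM2B also lost its call without MV4-11 replicate 2, and of the 2 higher in MV4-11 only 1 was called when any array was left out.

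Growth programs were examined by 4 lists. None of 52 DNA replication genes (median 0.13), 47 mitosis genes (0.19), 28 genes of MYC response and ribosome biogenesis (-0.21) and 49 oxidative phosphorylation genes (-0.22) was called by limma, with at most 1 call in any of these lists under the alternatives tried. With 5.24% of all genes called, lists of this size would hold few calls. At an unadjusted p under 0.05 they held 4, 2, 0 and 0 genes higher in MV4-11 and 1, 2, 6 and 11 higher in MOLM-13. Over all 17687 genes, 3044 passed that cutoff in either direction. Glycolysis and hypoxia genes showed 5 of 36 higher in MV4-11 (13.9%, against 2.92% of all genes; median 0.32), a count that was 0 without MV4-11 replicate 1, 0 without MOLM-13 replicate 1, 1 without MV4-11 replicate 2, 2 without MOLM-13 replicate 2 and 2 with centred arrays. Of 25 NRF2 and iron genes 4 were higher in MOLM-13 (against 2.32% of all genes; median -0.28), among which GCLC, an enzyme of glutathione synthesis, had the largest difference (-1.80 ± 0.28, adjusted p = 0.00054). That count fell to 1 without the replicate block, 1 without MV4-11 replicate 1 and 1 without MOLM-13 replicate 2. FADS2, a fatty acid desaturase, was higher in MV4-11 (10.35 and 10.51 against 8.54 and 8.37, a difference of 1.97 ± 0.22). It was the only called gene of 28 for cholesterol and fatty acid synthesis (3.57%, against 5.24% of all genes).

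**Figure D3:**
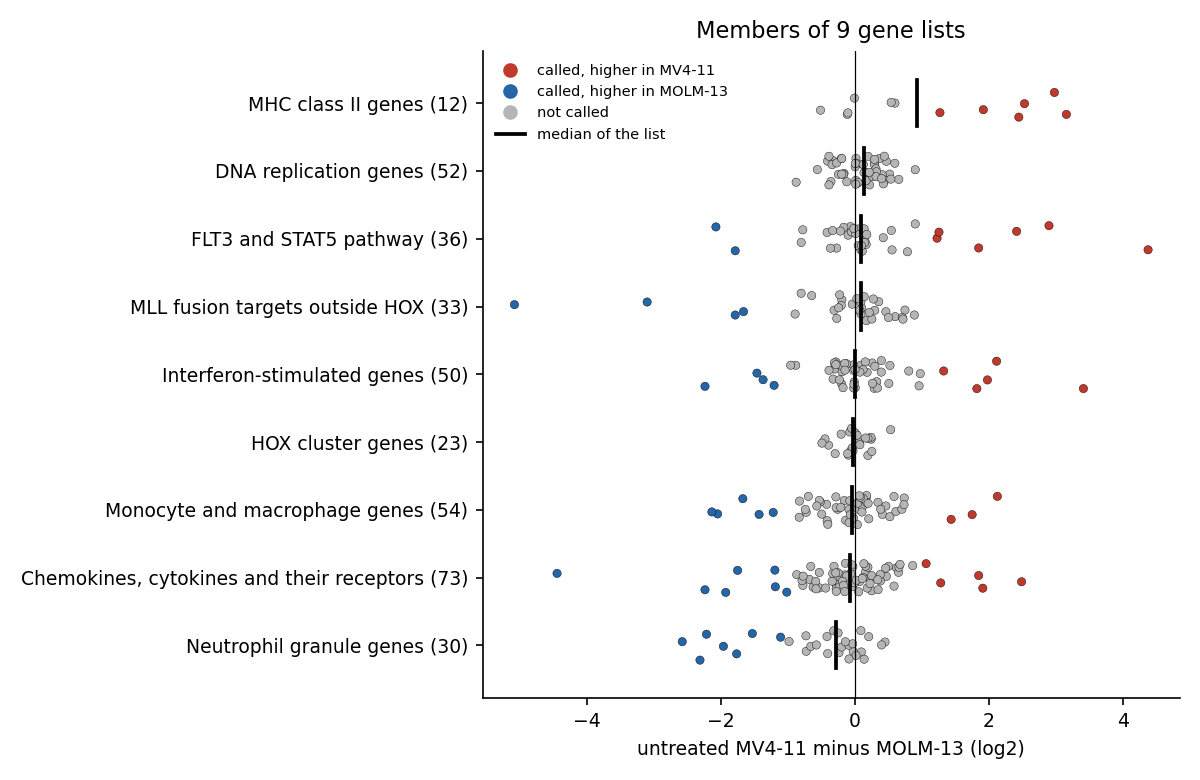
Untreated MV4-11 minus MOLM-13 difference (log2) of each measured member of 9 gene lists, with the number of measured members in parentheses; vertical position within a row has no meaning. Black bars mark list medians, from 0.93 for MHC class II genes to -0.28 for neutrophil granule genes, and no HOX or DNA replication gene is colored as called.

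Markers of other cell types were examined over 7 lists with 156 measured genes. Their median signal was 4.35 to 4.55 in the 4 arrays and the summed signal was 730.0 and 737.9 in MV4-11 and 718.6 and 745.4 in MOLM-13, so the arrays of the 2 lines overlapped. T and NK cell genes and erythroid genes had no called member by limma, with 1 in each list at an unadjusted p under 0.05, and B lymphoid genes had CD72 (2.15) and IL7R. Megakaryocyte genes had PPBP alone (-1.01), which was not called without MV4-11 replicate 1, MV4-11 replicate 2 or MOLM-13 replicate 1. Dendritic cell genes and stromal and epithelial genes had 1 called in each direction; the stromal gene higher in MV4-11 was lost when any array was left out, and the dendritic one without MV4-11 replicate 1 or MOLM-13 replicate 1. Eosinophil, basophil and mast cell genes had 2 called higher in MV4-11 (KIT, MS4A3) and 3 in MOLM-13 (RNASE2, PRG2, GATA2) of 21. This was 23.8% in all, against 5.24% of all genes. The shares called were 8.0% of B lymphoid, 5.88% of megakaryocyte, 9.09% of dendritic cell and 8.70% of stromal and epithelial genes. PRG2, the eosinophil granule protein, was at 4.25 and 4.62 against 6.69 and 6.60 (-2.20 ± 0.26).

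Zinc finger genes on chromosome 19 formed a large family higher in MV4-11. Many of them encode KRAB zinc finger proteins, repressors that bind transposable elements and lie in tandem clusters. The family was singled out after its values were seen, so it was given no test of its own. Of 233 measured ZNF genes on this chromosome, 70 (30.0%) were called higher in MV4-11 and 1 higher in MOLM-13, against 2.92% and 2.32% of all genes. Their median difference was 0.49. The remaining 1023 genes of chromosome 19 had 27 (2.64%) higher in MV4-11 and a median of 0.10, and 249 ZNF genes on other chromosomes had 18 (7.23%) and a median of 0.11. At all 70 the arrays of the 2 lines did not overlap, against 39.7% of all genes, and MV4-11 lay above the median of the other lines. The 70 were called on these same arrays, so the choice favored both. At 30 of them both MV4-11 arrays were above all 10 arrays of the other lines, beside 162 of all 516 genes higher in MV4-11. MOLM-13 lay below the median of the other lines at 58 of the 70 and below all their arrays at 9, beside 73 of the 516. The count was 53 without the replicate block, 65 with centred arrays and 50 to 61 when an array was left out.

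Many of the called zinc finger genes were gathered in a few neighborhoods. In windows of 20 measured genes in RefSeq order, 13 genes were called between ZNF577 and ZNF611, 12 between CAPNS1 and ZNF585B, 11 between LINC00663 and ZNF257, 8 between KCNN4 and ZNF285 and 7 between ZNF600 and ZNF813, all higher in MV4-11, with 0 higher in MOLM-13. All but KCNN4, an ion channel gene, were zinc finger genes by name. ZNF28, in the last of these windows, was at 7.99 and 7.32 in MV4-11 against 3.06 and 3.54 in MOLM-13 (4.36 ± 0.48, adjusted p = 2.1e-05). ZNF85 was at 8.51 and 7.20 against 4.47 and 3.69 (3.78 ± 0.29, adjusted p = 5.4e-07), ZNF43 at 9.14 and 8.31 against 5.40 and 5.14 (3.45 ± 0.35, adjusted p = 1.05e-05) and ZNF486 at 6.35 and 5.99 against 3.01 and 2.95 (3.19 ± 0.21, adjusted p = 9.62e-08). In each of these, replicate 1 was the higher array in MV4-11, but both MV4-11 arrays remained above both MOLM-13 arrays. Replicate 1 was the higher MV4-11 array at most of the 70 called ZNF genes of this chromosome. These genes thus moved together between arrays and cannot be counted as separate observations. The promoter windows of ZNF85, ZNF43 and ZNF486, 3 genes of 1 cluster (RefSeq, GRCh38.p14), are shown to display the likeness of paralogs. They were picked among called genes and no uncalled gene was aligned, so a link of sequence to direction was not tested. The window of ZNF85 lies at chr19:20923001-20923300 on the plus strand. Those of ZNF43 and ZNF486 lie at chr19:21836133-21836432 on the minus strand and at chr19:20166964-20167263 on the plus strand. Capitals mark CCAAT; its complement ATTGG was searched as well and was not found in them.
ZNF85: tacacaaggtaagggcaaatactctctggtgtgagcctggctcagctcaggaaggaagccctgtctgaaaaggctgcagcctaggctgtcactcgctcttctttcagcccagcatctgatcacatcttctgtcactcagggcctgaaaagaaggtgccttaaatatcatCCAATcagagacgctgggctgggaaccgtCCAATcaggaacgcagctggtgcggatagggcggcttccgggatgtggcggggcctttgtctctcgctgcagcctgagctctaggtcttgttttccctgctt
ZNF43: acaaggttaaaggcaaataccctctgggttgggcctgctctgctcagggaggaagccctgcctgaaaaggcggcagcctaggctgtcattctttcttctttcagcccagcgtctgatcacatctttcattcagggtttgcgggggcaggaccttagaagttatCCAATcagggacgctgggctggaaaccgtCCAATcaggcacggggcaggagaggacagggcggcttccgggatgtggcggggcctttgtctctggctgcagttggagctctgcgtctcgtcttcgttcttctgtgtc
ZNF486: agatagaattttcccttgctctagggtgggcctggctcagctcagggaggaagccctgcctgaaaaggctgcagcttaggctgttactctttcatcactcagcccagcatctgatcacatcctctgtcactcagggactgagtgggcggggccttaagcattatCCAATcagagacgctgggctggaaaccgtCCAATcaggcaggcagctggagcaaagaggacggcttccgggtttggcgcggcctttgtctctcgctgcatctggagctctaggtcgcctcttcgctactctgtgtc
Each window held CCAAT in 2 places, and the windows were 77.7% to 79.5% identical to each other when aligned, with gap positions counted. Across the family the motif was present at least once in 48.6% of 74 windows of called genes and in 50.0% of 176 windows of genes not called. At least 2 were present in 24.3% and 17.0% of these windows. Paralogs of this likeness may share probe signal, and overlapping gene models such as ZNF816 and ZNF816-ZNF321P cannot be counted as separate.

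**Figure D4:**
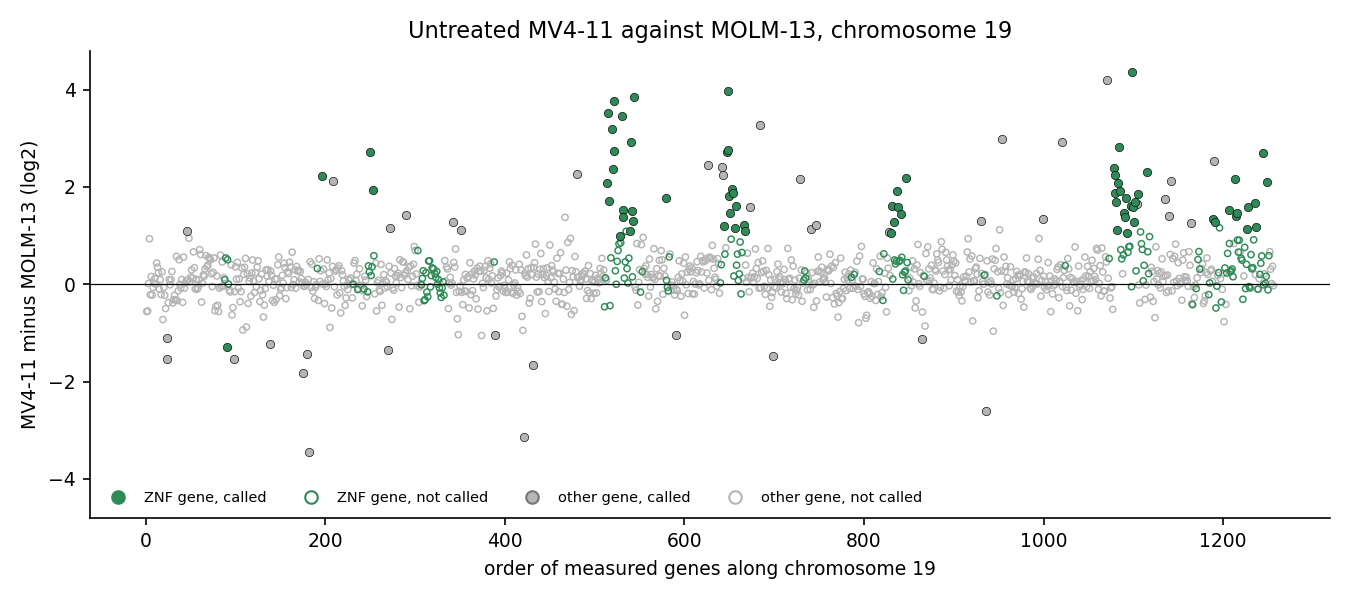
Untreated MV4-11 minus MOLM-13 difference (vertical axis, log2) of the 1256 measured genes of chromosome 19 in their order along the chromosome (horizontal axis, rank). Filled symbols were called and green symbols are ZNF genes; green filled symbols gather in a few stretches above 1, and 1 lies below -1.

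Differences between the lines were also unevenly spread over the other chromosomes. Over all measured genes, the median difference was -0.17 on chromosome 8 (608 genes), -0.16 on chromosome 13 (290 genes), -0.14 on chromosome 6 (926 genes) and -0.13 on chromosome 5 (756 genes), while it was 0.14 on chromosome 19 and between -0.03 and 0.12 on all others. Among genes with a mean of at least 6 in either line the medians were -0.36, -0.43, -0.31 and -0.32 in the same order, but this cutoff admits genes through the line in which they were high. Each replicate pair on its own gave medians of -0.45 and -0.40 on chromosome 13 and of -0.38 and -0.36 on chromosome 8 with this cutoff. Against 2.32% of all genes, 25 of 290 genes (8.62%) were called higher in MOLM-13 on chromosome 13, and 7 of them lay in 1 window from RUBCNL to KPNA3. The shares were 33 of 608 genes (5.43%) on chromosome 8, 43 of 926 (4.64%) on chromosome 6, where the class II genes went the other way, and 24 of 756 (3.17%) on chromosome 5. Chromosomes 4 (28 of 691, 4.05%) and 15 (17 of 520, 3.27%) had larger shares than chromosome 5, though their medians were -0.03 and 0.04. The shares thus did not follow the medians throughout. Chromosomes 5, 6, 8 and 13 and the cutoff were chosen after the values were seen.

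The 4 arrays of the same lines after 8 days in 1 µM Pinometostat, which did not enter the rule, were compared in the same way. There 858 genes (4.85%) were higher in MV4-11 and 556 (3.14%) in MOLM-13, or 556 and 329 without the replicate block. Leaving out MV4-11 treated replicate 1 gave 536 genes higher in MV4-11. Of the genes higher in untreated MV4-11, 369 were also called in treated cells, which is 71.5% of the untreated and 43.0% of the treated calls. For MOLM-13 they were 234 genes, or 56.9% and 42.1%. None was called in the opposite direction, and 501 of 516 and 390 of 411 kept their sign. Of the 70 ZNF genes of chromosome 19, 66 were called again, and all 9 CT45A genes were again higher in MOLM-13, by 4.15 to 6.41. KIT read 8.25 and 7.50 in treated MV4-11 and 3.78 and 3.62 in treated MOLM-13, a difference of 4.17 ± 0.27 against 4.38 ± 0.43 without drug.

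Some line differences were not the same with and without drug. The interaction of line and treatment was called at 201 genes (1.14%), 72 of which were among the 927, but at 48 without the block on replicate number. In treated cells, 9 of the 12 MHC class II genes were called higher in MV4-11, against 4.85% of all genes, and the median of the 12 was 2.69. HLA-DPA1 was at 10.52 and 10.58 in treated MV4-11 and at 4.79 and 4.55 in treated MOLM-13 (treated difference 5.88 ± 0.29; interaction 2.90, adjusted p = 0.000348). HLA-DPB1 stood at 10.04 and 9.93 against 4.36 and 5.04 (interaction 2.75, adjusted p = 0.000651). BCL6 went from a difference of -2.62 to 0.30, since treated MV4-11 reached 8.21 and 7.72 beside 8.20 and 7.12 in treated MOLM-13 (interaction 2.93, adjusted p = 0.000601). CDKN1A, the inhibitor p21, was at 5.87 and 5.66 in treated MV4-11 against 9.10 and 9.08 in treated MOLM-13, a difference of -3.32 ± 0.23 against -1.11 ± 0.31 in untreated cells (interaction -2.21, adjusted p = 0.00845). Without the block these 4 interactions had adjusted p of 0.0196, 0.00432, 0.0427 and 0.0150. FLT3, alike in untreated cells, was at 7.99 and 7.54 in treated MV4-11 and at 9.31 and 9.10 in treated MOLM-13 (-1.44 ± 0.27, adjusted p = 0.002), but its interaction did not pass the test (-1.53, adjusted p = 0.0793).

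**Figure D5:**
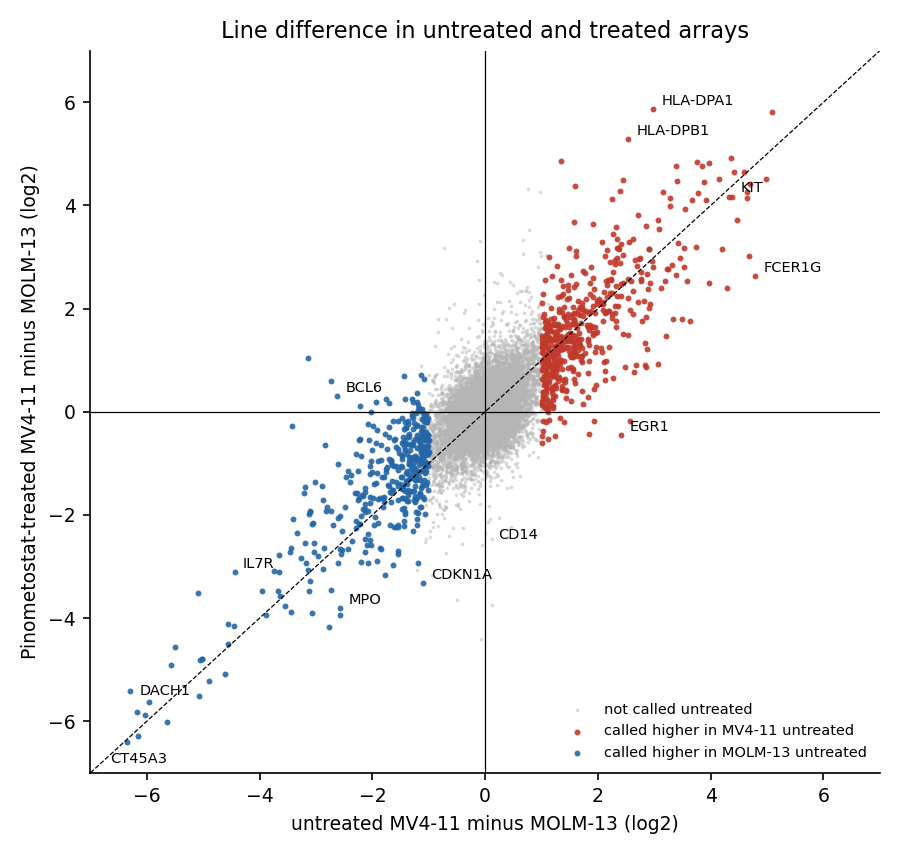
MV4-11 minus MOLM-13 difference (log2) in untreated arrays (horizontal axis) against the same difference in Pinometostat-treated arrays (vertical axis), 1 point for each named gene outside the Y chromosome, with the dashed line marking equality. Red and blue points were called in untreated cells; HLA-DPA1 lies above the line at 2.98 and 5.88, and EGR1 below it at 2.42 and -0.45.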

How the data were processed

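RNA of 7 AML lines was hybridised to Clariom S arrays, 2 control and 2 treated arrays a line. The authors deposited RMA-normalised log2 values, made with R 3.6.1 per the labels, and the genome build was not given in the sources used here. No depth applies, and the number of arrays limits the precision. Of 21448 transcript probe sets, 17709 had 1 gene name and gave 17687 genes (probe sets of 1 gene were averaged); 3739 without one and 5741 array controls were left out. limma 3.58.1 (R 4.3.3) was fitted on the 14 control arrays with line and replicate number as terms, then for treated arrays, and on 28 arrays for the interaction. p-values were adjusted by Benjamini-Hochberg over all genes, and a gene was called at an adjusted p under 0.05 and a log2 difference of at least 1; the interaction used the same limits. The block on replicate number was set by the rule of this comparison. As a check, same-numbered arrays deviated together in every pair of lines (correlation 0.145 to 0.572, and 0.54 for MV4-11 with MOLM-13). Named genes were the 12 largest differences in each direction, up to 4 called members of each list with the largest difference, and a few genes whatever their value, of which CD33 was not analysed here. SPI1, LYZ, ANPEP, CSF3R, CIITA, HLA-DMA, ZNF85, ZNF43, ZNF486 and other CT45A copies were named after their values were seen. The members and gene lists were chosen with earlier results of these data known. Alternatives were no block, other sets of arrays, quantile normalisation or centring, filters, variance priors and each array left out. The fit was tested on simulated data. Gene order, chromosomes and promoters came from RefSeq (GRCh38.p14).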

Additional observations from a re-analysis of the deposited data

Results flagged for a closer look

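The MV4-11 minus MOLM-13 difference differed between treated and untreated arrays (limma interaction, adjusted p under 0.05) at 17 of the 112 named genes. Of these, 5 stayed under 0.05 without the replicate block. Over all genes the interaction was called at 201 (1.14%). Most named genes were picked for a large untreated difference. The interaction reuses those control arrays, which favors a value opposite in sign to the untreated difference. The values below are the treated minus the untreated line difference on the log2 scale. Among MHC class II genes it was 2.90 for HLA-DPA1 (adjusted p = 0.000348), 2.75 for HLA-DPB1 (adjusted p = 0.000651) and 2.05 for HLA-DRB1 (adjusted p = 0.0124), the last at 0.0969 without the block. Among transcription factors it was 2.93 for BCL6 (adjusted p = 0.000601), -2.87 for EGR1 (adjusted p = 0.000772, 0.177 without the block) and -1.50 for IRF4 (adjusted p = 0.0340, 0.549 without the block). Among granule and monocyte genes it was 1.68 for RNASE2 (adjusted p = 0.00257), -1.24 for MPO (adjusted p = 0.0373, 0.254 without the block) and -2.18 for CD14 (adjusted p = 0.00879, 0.335 without the block). FCER1G gave -2.17 (adjusted p = 0.00257, 0.0651 without the block) and CD84, a receptor of the SLAM family, gave 2.12 (adjusted p = 0.00107, 0.153 without the block). For cytokines and receptors it was 1.68 for CXCL10 (adjusted p = 0.0254, 0.820 without the block), -1.62 for IL1B (adjusted p = 0.0306, 0.304 without the block) and 1.33 for IL7R (adjusted p = 0.0468, and 1.00 without the block). For cell cycle and survival genes it was -2.21 for CDKN1A (adjusted p = 0.00845), -1.70 for BCL2L10 (adjusted p = 0.0142, 0.182 without the block) and -1.47 for BNIP3, a mitophagy receptor induced by hypoxia (adjusted p = 0.0256, 0.390 without the block).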

How the results depend on the processing

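Without the replicate block, 355 genes were higher in untreated MV4-11 and 271 in MOLM-13, against 516 and 411 with it; in treated arrays the counts without it were 556 and 329, and the interaction was called at 48 genes. Leaving out 1 array gave 339 to 355 genes higher in MV4-11 and 245 to 285 higher in MOLM-13 in untreated cells, and 536 to 917 and 395 to 570 in treated cells, the lone array of a line being taken to vary like the other lines. Of the 927 called genes, 626 remained called without the block, 568 to 615 with an array left out and 843 to 927 under the other alternatives fitted with the block, with 0 called in the opposite direction under any of these. Quantile normalization gave 508 and 472 genes and centring 453 and 492. Centring shifted 26 list medians by at least the SD between the 2 replicate pairs and left 15 within it. With an array left out, 15 to 17 list medians shifted that far. List medians near 0 are therefore relative to the scaling and the arrays used. Of 112 named genes, 14 lost their call without the block and 17 to 22 with an array left out, while CD34 gained one. Arrays give no count of molecules, and values near the background probe sets limit the fold changes of dim genes.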
